A study of Mus musculus with 4 samples.

Results

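Glucose enters most mammalian cells through facilitative transporters of the SLC2 family, is phosphorylated and so trapped by a hexokinase, and is split and oxidised to pyruvate by a fixed order of cytosolic enzymes. Lactate dehydrogenase then turns pyruvate to lactate and returns the NAD+ that glycolysis needs. In alveolar type 2 cells, which make surfactant, the pathway supplies both ATP and carbon for lipid synthesis. The group described here holds 10 genes of this pathway, 10 of the 53465 gene IDs in the count table: the glucose transporter gene Slc2a1, the hexokinase genes Hk1 and Hk2, Gpi1, Pfkl and Aldoa for the steps that follow, and Gapdh, Eno1, Pkm and Ldha for the later steps. The genes were chosen by function, as a list of Ensembl IDs with their symbols, with no threshold on their values. Earlier results of these data were known when the list was made.

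Ribosome profiling counts footprints, the pieces of mRNA shielded from nuclease by a bound ribosome, so a gene's footprint level moves with the amount of its mRNA and with how densely ribosomes occupy it. Matched RNA libraries are not analysed here, so these causes of a difference cannot be told apart. A change in the mix of cells and a change in footprints per cell cannot be told apart either. The cells were MLE-12, a mouse lung epithelial line that stands in for alveolar type 2 cells and was immortalised with a viral large T antigen. Treated cells received 5 µM 1-nitropyrene, a nitroarene found in diesel exhaust, for 12 h (replicates 2 and 3), and control cells were cultured without it (replicates 1 and 2). All 4 libraries come from the same line and were prepared with a wash of cycloheximide, a drug that stalls ribosomes on mRNA. Total counts were 1243186 and 1357034 in the 1-nitropyrene libraries and 1261372 and 1136145 in the control libraries. The labels do not state whether replicates were separate cultures, so the p-values below rest on a spread that may be purely technical. Markers of lung cell types were not looked up, since the tables used here tie no symbol to the other IDs.

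Slc2a1, Hk2, Pfkl, Aldoa and Pkm rose in 1-nitropyrene cells, by 1.25- to 1.59-fold, while Hk1, Gpi1, Eno1 and Ldha did not pass the test. Gapdh was listed at 0 in every library. Of the 10 genes, 9 had counts and all 9 passed the filter on low counts, with means of 84.25 to 1219.25 counts per library. The test was edgeR's quasi-likelihood F test, fitted over all 7719 genes that passed the filter, with Benjamini-Hochberg adjustment and a threshold of 0.05. The fit pooled the spread fully over genes, so a gene's own gap between replicates does not enter its p-value or standard error. By this rule 5 of the 9 genes were called, against 17.3% of all genes tested. Calls are more frequent among well-covered genes: of the 2075 genes whose mean count reached 84.25, 35.1% were called, with 23.7% called higher and 11.4% called lower. All 5 calls were higher, against 9.68% of all genes tested. None of the 9 was called lower (0 of 9 by edgeR with or without adjustment, and 0 with DESeq2 or limma-voom), against 7.58% of all genes tested. For 6 of the 9 genes the levels of the groups did not overlap, each time with 1-nitropyrene above control. Groups did not overlap, in either direction, for 57.3% of all genes tested and for 70.2% of those at least as well covered. Separation in either direction was thus near the background. With 1-nitropyrene above control the share was 28.6% of all genes tested, and it was not computed for the well-covered genes. Which genes separated depended on the scaling: with total counts Gpi1 overlapped, and Hk1 and Eno1 lay lower in both 1-nitropyrene libraries than in both controls. The median log2 fold change of the 9 genes was 0.32, beside -0.0076 for all genes tested and 0.077 for those at least as well covered.

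Levels below are CPM, counts scaled by TMM to a library of 1e6, in which a single count was worth 0.761 to 0.860 CPM. They compare a gene between libraries and not genes with each other, since footprint counts grow with the length of the coding sequence and no coding length was used. Errors are SD over n = 2 libraries for levels and SE for log2 fold changes, and the interval of a log2 fold change is the fitted value with its 95% normal interval. Positions are those of RefSeq's annotation of GRCm38.p6, the same build as the mm10 of the submitters' notes.

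**Figure D1:**
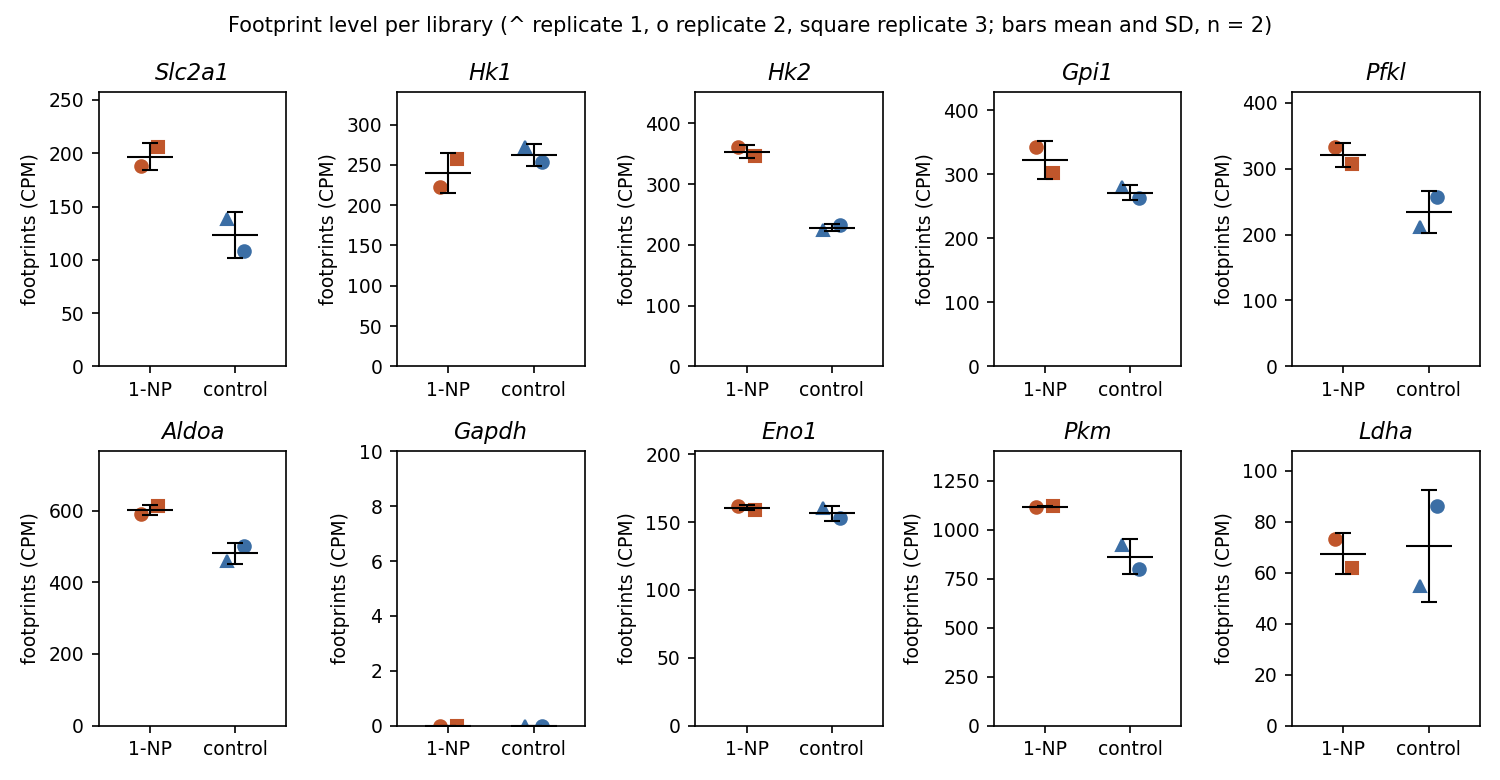
Footprint level in CPM (y axes, each from 0) of the 10 genes in the 1-nitropyrene libraries (1-NP, orange, left) and the control libraries (blue, right), with a point for each library and bars for the mean and SD of n = 2. On this TMM scale the groups stand apart for Slc2a1, Hk2, Gpi1, Pfkl, Aldoa and Pkm, overlap for Hk1, Eno1 and Ldha, and Gapdh lies at 0 throughout.

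Slc2a1 (ENSMUSG00000028645, chr4:119108745-119137330) encodes GLUT1, the transporter that carries glucose across the plasma membrane in most cells at rest. It had 188 and 206 CPM in the 1-nitropyrene libraries, from 218 and 260 counts, and 138 and 108 CPM in the control libraries, from 182 and 128 counts. Both 1-nitropyrene libraries lay above both controls, although the controls themselves differed by 0.36 on the log2 scale. The fitted rise was 1.59-fold (log2 fold change 0.67 ± 0.13 SE, interval 0.41 to 0.93, edgeR adjusted p = 1.28e-05). This was the highest fold change among the 9 genes, and 8.73% of all genes tested had a higher one. With a control library left out the log2 fold change was 0.87 (without control replicate 1) and 0.51 (without control replicate 2), so the size of the rise depended on which control was used, and the call held in both cases.

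The hexokinases catalyse the same step. Hexokinase 2 is the isozyme typical of insulin-sensitive muscle and fat and of many growing and tumour cells, and hexokinase 1 is present in most tissues; both can bind the outer mitochondrial membrane. Hk2 (ENSMUSG00000000628, chr6:82725025-82774454) had 361 and 346 CPM in the 1-nitropyrene libraries, from 420 and 437 counts, against 224 and 233 CPM in the control libraries, from 295 and 276 counts. The groups stood far apart relative to their own spread, 354 ± 10.8 against 229 ± 5.99 CPM. Hk2 rose 1.55-fold (log2 fold change 0.63 ± 0.096 SE, edgeR adjusted p = 4.08e-09), and 9.95% of all genes tested had a higher fold change.

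Hk1 (ENSMUSG00000037012, chr10:62268855-62379920) had 223 and 257 CPM in the 1-nitropyrene libraries, from 259 and 325 counts, and 272 and 253 CPM in the control libraries, from 358 and 300 counts. Its groups overlapped with TMM, and the log2 fold change of -0.13 ± 0.10 SE had an interval of -0.33 to 0.073 (edgeR adjusted p = 0.422). The interval leaves room for a fall of up to that size and for a slight increase. Scaled to total counts in place of TMM, Hk1 was called lower (log2 fold change -0.29, edgeR adjusted p = 0.0276), against 14.4% of all genes called lower with that scaling, which moved the median of all genes tested to -0.17. The 2 IDs with the most counts held 29.7% to 33.0% of a library's counts. With total counts without them, Hk1 was not called (log2 fold change -0.23, edgeR adjusted p = 0.113).

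The balance of the hexokinases within a library does not depend on scaling. Hk2 had 1.62 and 1.34 counts for each Hk1 count in the 1-nitropyrene libraries, and 0.824 and 0.920 in the control libraries. As a share of the counts of both genes, Hk2 made up 61.9% (95% Clopper-Pearson interval 58.1 to 65.5) and 57.3% (53.7 to 60.9) in the 1-nitropyrene libraries, and 45.2% (41.3 to 49.1) and 47.9% (43.8 to 52.1) in the control libraries. Hk2 thus held the majority in both 1-nitropyrene libraries and the minority in both controls, although the interval of control replicate 2 includes an even split. The mean ratio was 1.48 ± 0.196 with 1-nitropyrene and 0.872 ± 0.0679 in control, 1.70 times as high. With 2 libraries against 2, an exact two-sided permutation test gave p = 0.333, the smallest it can give. These intervals treat each read as independent and cover counting error only, as do all others given for shares. They are too narrow where several reads are copies of the same molecule. The counts of both genes together made up 17.2% and 17.9% of the footprints of the 9 genes in the 1-nitropyrene libraries and 18.2% and 18.3% in the control libraries. The combined share averaged 17.6% ± 0.471 with 1-nitropyrene and 18.3% ± 0.0589 in control (SD, n = 2 each), a far smaller difference than that in the balance of the isozymes. The summed CPM of the 9 genes was itself 1.26 times as high with 1-nitropyrene, so a like share does not mean a like level of hexokinase footprints.

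**Figure D2:**
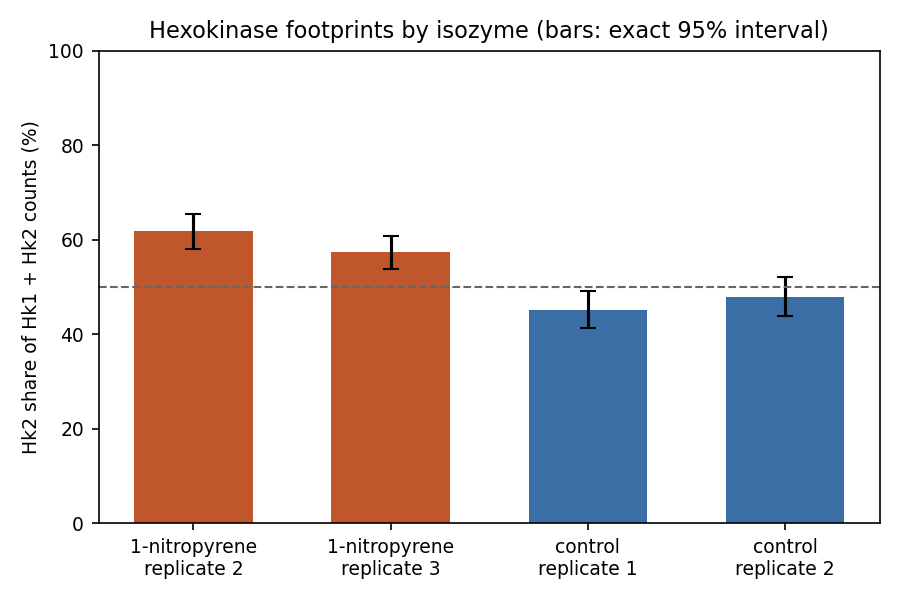
Share of Hk2 in the summed counts of Hk1 and Hk2 (y axis, percent) in each library, with exact 95% intervals that cover counting error only and a dashed line at an even split. Hk2 made up 61.9% and 57.3% in the 1-nitropyrene libraries (orange) and 45.2% and 47.9% in the control libraries (blue).

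The next 3 enzymes carry the phosphorylated sugar to the split into trioses. Gpi1 (ENSMUSG00000036427, chr7:34201327-34230336), the isomerase that turns glucose phosphate to fructose phosphate, had 342 and 301 CPM in the 1-nitropyrene libraries and 279 and 263 CPM in the control libraries. The groups did not overlap on this scale, but the log2 fold change of 0.24 ± 0.095 SE did not pass the test (edgeR adjusted p = 0.0566). Scaled to total counts, the groups overlapped, at 320 and 280 per 1e6 counts with 1-nitropyrene and 291 and 275 in control, and the log2 fold change was 0.078 (edgeR adjusted p = 0.612). Over the 13 alternatives it ran from 0.078 to 0.34, with edgeR adjusted p of 0.428 without 1-nitropyrene replicate 2 (log2 fold change 0.16) and 0.0424 without 1-nitropyrene replicate 3 (0.34), the only alternative in which Gpi1 passed.

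Pfkl (ENSMUSG00000020277, chr10:77986947-78009807) encodes the liver-type subunit of phosphofructokinase, which catalyses the committed and most tightly controlled step. It had 333 and 307 CPM in the 1-nitropyrene libraries, from 387 and 388 counts, against 211 and 257 CPM in the control libraries, from 278 and 305 counts. Both treated libraries lay above both controls, and Pfkl rose 1.37-fold (log2 fold change 0.45 ± 0.098 SE, edgeR adjusted p = 0.000102). The call was lost without control replicate 1 (log2 fold change 0.31, edgeR adjusted p = 0.0962) and without 1-nitropyrene replicate 2 (0.41, edgeR adjusted p = 0.0644).

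Aldoa (ENSMUSG00000030695, chr7:126795234-126800994), the aldolase that splits fructose bisphosphate, had 591 and 612 CPM in the 1-nitropyrene libraries, from 687 and 773 counts. It had 460 and 502 CPM in the control libraries, from 605 and 595 counts. The groups did not overlap, and Aldoa rose 1.25-fold (log2 fold change 0.32 ± 0.070 SE, edgeR adjusted p = 9.2e-05). With total counts as the scaling the call was lost (log2 fold change 0.16, edgeR adjusted p = 0.0857). With total counts without the 2 IDs with the most counts it held (0.23, edgeR adjusted p = 0.01).

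Gapdh (ENSMUSG00000057666, chr6:125161852-125166467), which oxidises the triose phosphate and yields NADH, is among the most highly expressed genes of most mammalian cells. It was listed with 0 counts in each of the 4 libraries. If the zeros came from sampling alone, each would allow up to 3 counts. That is 2.58 and 2.38 CPM in the 1-nitropyrene libraries and 2.28 and 2.53 CPM in the control libraries. If reads of Gapdh were left out of the counts, the zeros set no such limit. No fold change was computed. How reads that match several places were counted is not given in the sources used here. RefSeq's table names 3 pseudogene copies after Gapdh, 3 after Ldha and 2 after Aldoa, and 0 after the other members by the same naming. Copies under other names were not searched for, and counts of genes with near-identical copies are uncertain. Whether such copies had a part in the zeros of Gapdh was not tested.

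Eno1 (ENSMUSG00000063524, chr4:150236708-150248879), the enolase that makes phosphoenolpyruvate, stayed within a narrow range. It had 162 and 159 CPM in the 1-nitropyrene libraries, from 188 and 201 counts, and 160 and 153 CPM in the control libraries, from 211 and 181 counts. The groups overlapped with TMM, and the log2 fold change was 0.034 ± 0.13 SE with an interval of -0.22 to 0.29 (edgeR adjusted p = 0.904). Its sign turned with total counts (-0.13, edgeR adjusted p = 0.527).

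Pkm (ENSMUSG00000032294, chr9:59656576-59679372), the pyruvate kinase gene whose splice forms are not separated in counts per gene, held the most counts of the group. It had 1117 and 1121 CPM in the 1-nitropyrene libraries, from 1298 and 1415 counts, and 925 and 800 CPM in the control libraries, from 1216 and 948 counts. The treated libraries were nearly alike and both lay above both controls. Pkm rose 1.30-fold (log2 fold change 0.37 ± 0.052 SE, interval 0.27 to 0.48, edgeR adjusted p = 8.8e-11). The rise was not an extreme one, as 21.2% of all genes tested had a higher fold change. Its SE was the smallest of the group, but the gap of 0.21 on the log2 scale between the controls does not enter it. The log2 fold change was 0.48 without control replicate 1 and 0.28 without control replicate 2.

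Ldha (ENSMUSG00000063229, chr7:46842274-46855627), the muscle-type subunit of lactate dehydrogenase, had the fewest counts of the 9 genes. It had 73.1 and 61.8 CPM in the 1-nitropyrene libraries, from 85 and 78 counts, and 54.8 and 86.1 CPM in the control libraries, from 72 and 102 counts. The controls enclosed both treated libraries and differed from each other by 0.65 on the log2 scale. The log2 fold change of -0.054 ± 0.20 SE had an interval of -0.45 to 0.34 (edgeR adjusted p = 0.899), which does not exclude a change as large as that of Aldoa. Its sign turned without control replicate 2 (log2 fold change 0.30, edgeR adjusted p = 0.556).

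**Figure D3:**
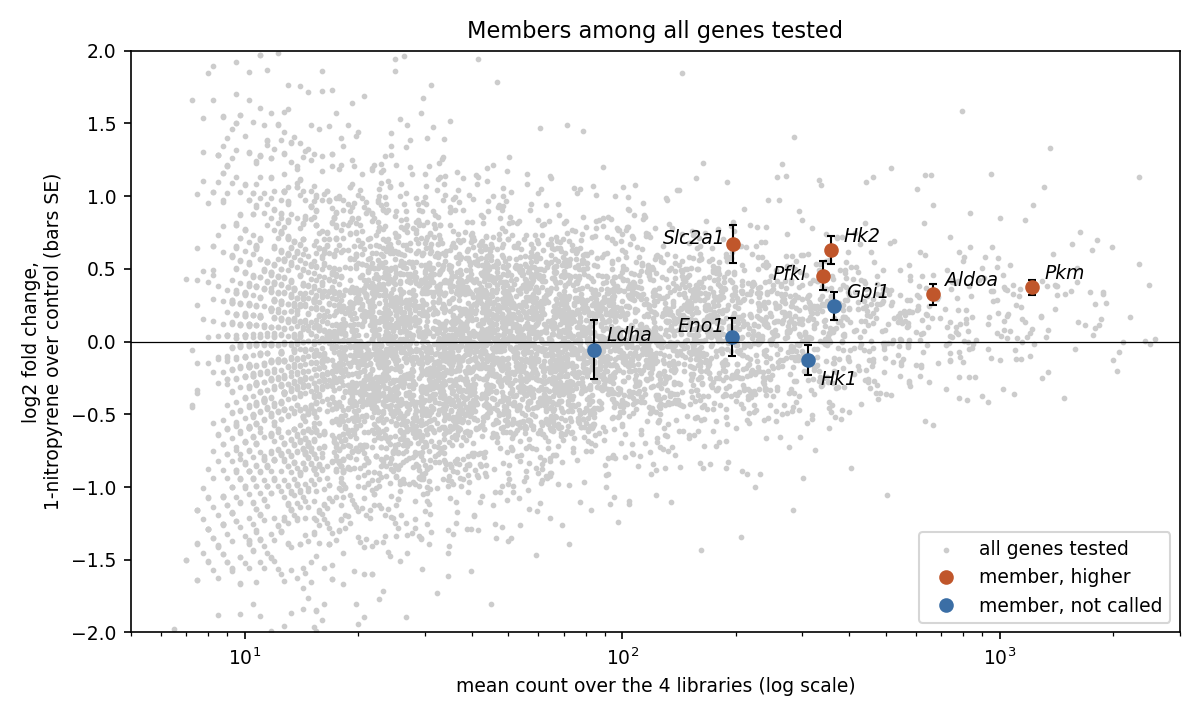
Log2 fold change of 1-nitropyrene over control (y axis) against the mean count over the 4 libraries (x axis, log scale) for the genes tested (grey) and the 9 members with counts, with SE bars. The 5 called members (orange) lie between 0.32 and 0.67 inside the spread of the grey points, and the 4 others (blue) lie between -0.13 and 0.24; 72 tested genes fall outside the axes.

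Set side by side, the fitted rises were 1.59-fold for Slc2a1 and 1.55-fold for Hk2 at the entry of glucose, 1.37-fold for Pfkl, 1.25-fold for Aldoa and 1.30-fold for Pkm. The intervals of all 5 overlap one another, those of Aldoa (0.19 to 0.46) and Pkm (0.27 to 0.48) included. Overlap of intervals does not decide whether 2 rises differ, and the order of the rises was not tested. The interval of Hk2 (0.44 to 0.82) lies above that of Hk1 (-0.33 to 0.073). Summed over the 9 genes, the level was 3390 and 3372 CPM in the 1-nitropyrene libraries and 2726 and 2655 CPM in the control libraries, 1.26 times as high (exact two-sided permutation test, p = 0.333, the smallest it can give). Without Pkm the sum was 2273 and 2251 CPM with 1-nitropyrene and 1801 and 1855 CPM in control. As a share of all counts, which is scaling to total counts, the 9 genes held 0.317% and 0.314% in the 1-nitropyrene libraries. The control libraries had 0.284% and 0.277%, so that the sum was 1.12 times as high with 1-nitropyrene on this scale.

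Within the summed counts of the 9 genes, Slc2a1 made up 5.82% ± 0.406 with 1-nitropyrene and 4.57% ± 0.715 in control, and Hk2 10.5% ± 0.279 and 8.50% ± 0.381 (SD, n = 2 each). Hk1 made up 7.10% ± 0.750 with 1-nitropyrene and 9.76% ± 0.322 in control, and Eno1 4.75% ± 0.0353 and 5.82% ± 0.0960. These 4 shares did not overlap between the groups. No background was computed for shares. In CPM, 57.3% of all genes tested did not overlap, and 70.2% of those at least as well covered, so separation by itself says little. Aldoa took 17.8% ± 0.510 and 17.9% ± 1.43, and Pkm 33.1% ± 0.209 and 32.0% ± 2.69, both overlapping. Shares within a fixed sum are tied to each other, so a larger share for some genes lowers the others, and with 2 libraries a group none can go below an exact permutation p of 0.333.

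The calls were compared across 13 alternatives of scaling, filter, test and libraries used. Slc2a1, Hk2 and Pkm kept their direction and call in all 13. Pfkl kept its direction in all 13 and its call in 10, and Aldoa its direction in all 13 and its call in 12. With the DESeq2 Wald test, which called 318 of all genes, the 5 calls held with weaker values. Its adjusted p was 0.0199 for Slc2a1, 0.000744 for Hk2 and 0.000606 for Pkm. For Pfkl it was 0.0457 and for Aldoa 0.0334. With total counts, 4 of the 9 genes were called higher and 1, Hk1, lower, against 5.26% and 14.4% of all genes tested. Total counts without the 2 IDs with the most counts gave 5 higher and 0 lower, among 508 and 849 of all genes.

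**Figure D4:**
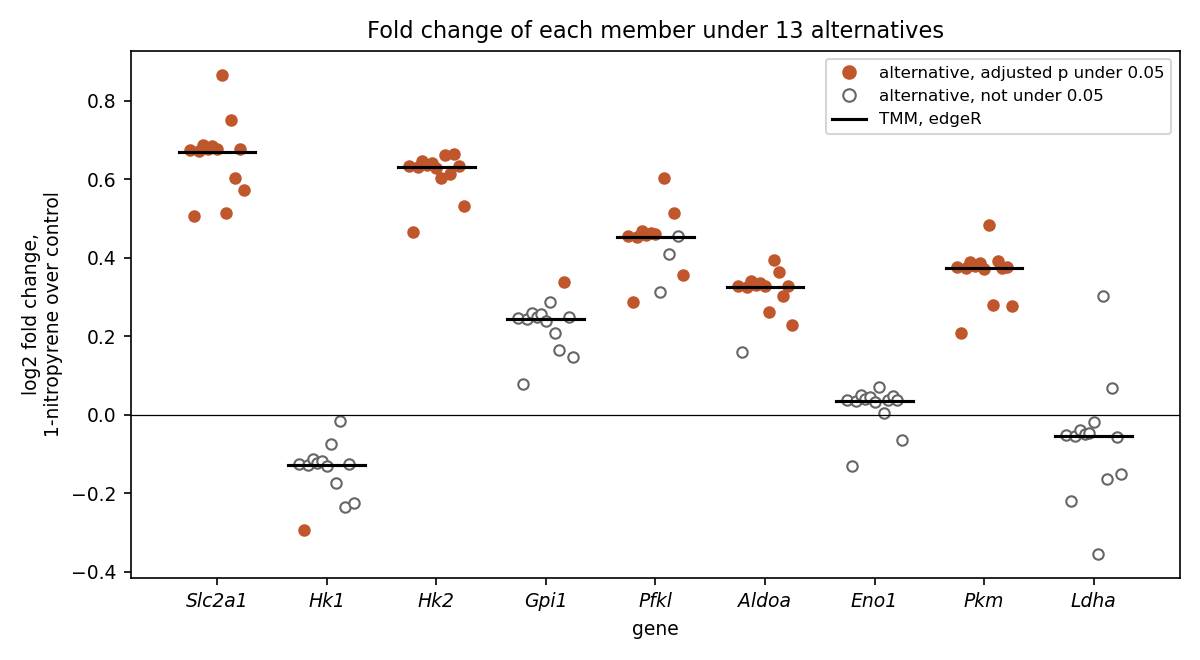
Log2 fold change of 1-nitropyrene over control (y axis) for the 9 members with counts (x axis) under 13 alternatives each (points, filled where the adjusted p was under 0.05), with a black line at the value from TMM and edgeR. Slc2a1, Hk2 and Pkm are filled throughout, the lowest points of Slc2a1 and Hk2 lie at 0.51 and 0.47, and Eno1 and Ldha have points on both sides of 0.

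Several glycolytic genes are textbook targets of the hypoxia-inducible factors, whose sites often contain the letters ACGTG, called the core here. This core was searched for on both strands, so that it also reads CACGT, in the 250 bases upstream of each annotated start. Forms of the site with another first letter were not searched for, so a window without a match may still hold such a form. The palindrome CACGTG, which Myc and USF factors can bind, holds the core on both strands and counts as 2 matches. All 10 genes have promoter entries in RefSeq's annotation, 17 in all, and 5 genes (Slc2a1, Hk2, Aldoa, Pkm and Ldha) hold the core in at least 1 entry, against 18.5% of all genes with entries. A gene with more entries has more windows in which to hold it. By entry, 6 of the 17 hold the core, against 16.6% of all entries, and the matching entries of Aldoa overlap and hold the same site. Those of Slc2a1 and Hk2 are shown because these genes had the highest fold changes, and that of Ldha because it holds the most matches among the members while its level did not pass the test. Each is the 250 bases upstream of a start in GRCm38.p6, 5′ to 3′ on the gene's strand, with the core in capitals. They cover chr4:119108495-119108744 on the plus strand for Slc2a1, chr6:82774455-82774704 on the minus strand for Hk2 and chr7:46845554-46845803 on the plus strand for the entry of Ldha that holds the core.
Slc2a1: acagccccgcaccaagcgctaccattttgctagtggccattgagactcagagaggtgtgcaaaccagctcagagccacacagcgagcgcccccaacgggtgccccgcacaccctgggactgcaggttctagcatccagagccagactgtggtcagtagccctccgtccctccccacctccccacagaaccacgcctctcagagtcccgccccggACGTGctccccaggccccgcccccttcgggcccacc
Hk2: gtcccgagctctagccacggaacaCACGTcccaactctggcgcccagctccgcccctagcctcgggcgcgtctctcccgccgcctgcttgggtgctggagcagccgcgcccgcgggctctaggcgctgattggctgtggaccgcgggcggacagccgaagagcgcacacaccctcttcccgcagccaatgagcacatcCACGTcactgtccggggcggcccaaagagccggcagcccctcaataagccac
Ldha: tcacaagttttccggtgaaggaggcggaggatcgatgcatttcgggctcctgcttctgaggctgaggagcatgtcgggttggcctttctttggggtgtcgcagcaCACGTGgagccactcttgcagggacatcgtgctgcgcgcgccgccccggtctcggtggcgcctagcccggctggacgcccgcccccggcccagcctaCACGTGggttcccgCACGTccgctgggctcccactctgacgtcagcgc
Slc2a1 holds 1 match, which begins 36 bases before the start, and Hk2 holds 2, which begin 226 and 52 bases before it. Ldha holds 5 matches between 145 and 34 bases before the start, 4 of them from 2 copies of CACGTG. Pfkl was called higher and has no match in its window, and neither entry of Hk1 has one, which says only that these letters are not in these windows. A match is a run of letters and not a bound site, and the footprint counts hold no measure of binding.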

How the data were processed

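Ribosome footprints were measured in 4 libraries of MLE-12 cells. The authors deposited raw counts per Ensembl gene ID, whole numbers with no normalization, in 1 table with 0 other sample columns. Per the submitters' processing notes, the build was mm10 and the software DESeq2, featureCounts, HISAT2, Bowtie and cutadapt; versions, roles, annotation, strand and multi-mapping settings: not given in the sources used here. Genes were kept with filterByExpr (minimum count 10, minimum total 15; 98.6% of counts), scaled with TMM and tested with edgeR 4.0.16 (R 4.3.3) over the whole table, after a test of the scripts on simulated data. SEs were derived from the fold change and F statistic. DESeq2 1.42.0 and limma-voom (limma 3.58.1) were alternatives. Chi-square per degree of freedom between replicates was 1.55 (control) and 1.61 (1-nitropyrene). This shows no identical copies but cannot tell separate samples from repeat libraries of the same sample; each library was counted as a sample, as labelled. The members and lists were chosen with earlier results of these data known. All 10 members are named, by the symbols given with the list. The other 12 lists of symbols (pathway genes and cell type markers) were not run, as the gene table ties an Ensembl ID to 0 of its 49997 genes. RefSeq entries were matched by symbol. With 4 libraries in 2 groups, genes were not ranked by likeness of pattern.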

Additional observations from a re-analysis of the deposited data

How the results depend on the processing

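Total counts gave a log2 ratio of 0.17 for the summed level of the members, against 0.33 with TMM, and 1 member called lower, against 0; the alternative itself moves the median of all genes tested to -0.17. Eno1, not called in any fit, turned to -0.13 with total counts and to -0.063 with total counts without the 2 IDs with the most counts. Ldha, not called either, turned to 0.30 without control replicate 2 and to 0.069 without 1-nitropyrene replicate 3, and ran from -0.35 to 0.30 over the fits without 1 library. Of all genes, 1332 were called (747 higher, 585 lower). Total counts called 406 higher and 1110 lower, the DESeq2 Wald test 318 (239 higher, 79 lower), and DESeq2 on the genes edgeR tested, added after seeing the data, 345 (243 and 102); the cause of the DESeq2 gap was not tested. Without 1 library the counts ran from 572 to 834 (382 to 480 higher, 190 to 354 lower), assuming that a single remaining library varies as the other group does. The count of members called was 4 to 6 without 1 library and 4 or 5 otherwise. Pfkl also missed the threshold with DESeq2 on the genes edgeR tested (adjusted p = 0.0532). No paired analysis was possible because only replicate number 2 occurs in both groups. The alternatives for the pathway lists were not run. Among the tested members the SE of the log2 fold change ran from 0.052 for Pkm, the deepest, to 0.20 for Ldha, the shallowest.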
